A study of Homo sapiens with 36 samples.

Results

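RAI1, TCF20, PHF14 and HMG20B are 4 of the 62710 genes in the deposited tables, taken by gene symbol, and each symbol named a single row. They were followed in H9, a line of human embryonic stem cells, as neurons (iNeurons) were made from it by doxycycline-dependent expression of the proneural factor NGN2. The groups were unedited cells (WT), cells labelled RAI1+/- (HET) and cells labelled RAI1-/- (KO), each harvested before induction (day 0) and on days 3 and 7, with 4 libraries a group and 36 in all. All groups, WT included, went through the same NGN2 protocol and carried a single batch label. The labels call the libraries biological replicates and do not say whether they came from separate cultures or clones, so p-values measure the spread between these libraries, which may be technical. The promoter that carries NGN2, the number of clones and the edit in RAI1 were not given in the sources used here.

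RAI1 is a chromatin protein whose dosage is held within narrow limits: loss of a single copy causes Smith-Magenis syndrome, and an extra copy causes Potocki-Lupski syndrome. TCF20 is its paralog, and both carry an extended PHD finger near the C-terminus through which they bind nucleosomes; loss of a TCF20 copy also causes a neurodevelopmental disorder. PHF14 is a PHD finger protein that reads histone H3 tails and has been purified with RAI1 and TCF20. HMG20B, also called BRAF35, is an HMG-box protein and a subunit of the LSD1-CoREST complex, which removes histone marks at neuronal genes held silent by REST.

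In GRCh38, per GENCODE 29, RAI1 (ENSG00000108557) lies on chromosome 17 at 17681473 to 17811453 on the plus strand. TCF20 (ENSG00000100207) lies on chromosome 22 at 42160013 to 42343616 on the minus strand, PHF14 (ENSG00000106443) on chromosome 7 at 10973336 to 11169630 on the plus strand, and HMG20B (ENSG00000064961) on chromosome 19 at 3572777 to 3579088 on the plus strand. HMG20B is by far the shortest: its longest coding transcript has 1596 bases, against 7662 for RAI1, 7410 for TCF20 and 9869 for PHF14. Bases upstream of the RefSeq starts (build GRCh38.p14) are shown for RAI1 and TCF20, which rose in KO neurons, and for HMG20B, which fell; annotated exons are not printed, so the HMG20B stretch ends 167 bases before its RefSeq start. Capitals mark E-boxes (CANNTG, the core bound by NGN2 and other basic helix-loop-helix factors) and CCAAT boxes (CCAAT, or ATTGG where the match is on the other strand). The windows are chr17:17681208-17681457 (plus strand), chr22:42283928-42284177 (minus strand, the upstream of 2 RefSeq starts of TCF20) and chr19:3572694-3572776 (plus strand, the 83 bases before the first annotated exon of HMG20B).
RAI1: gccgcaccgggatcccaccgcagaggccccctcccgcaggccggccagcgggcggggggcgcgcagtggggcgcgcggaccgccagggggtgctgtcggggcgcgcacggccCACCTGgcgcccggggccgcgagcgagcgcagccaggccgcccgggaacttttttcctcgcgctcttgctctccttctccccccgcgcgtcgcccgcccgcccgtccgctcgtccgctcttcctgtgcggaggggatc
TCF20: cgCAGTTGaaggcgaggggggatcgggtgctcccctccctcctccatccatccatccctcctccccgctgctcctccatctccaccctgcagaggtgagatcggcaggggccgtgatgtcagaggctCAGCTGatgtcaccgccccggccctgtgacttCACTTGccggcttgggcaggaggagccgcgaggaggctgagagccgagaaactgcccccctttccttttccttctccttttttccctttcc
HMG20B: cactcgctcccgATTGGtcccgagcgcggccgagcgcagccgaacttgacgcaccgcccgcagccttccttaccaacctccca
Over the full 250 bases before the start, searched on both strands, E-boxes numbered 1 for RAI1, 3 for the upstream TCF20 start and 1 for the other, 0 for PHF14 and 0 for HMG20B, and 61.8% of 35116 RefSeq promoter windows of that length held at least 1. CCAAT boxes numbered 3 for HMG20B (1 of them in the printed stretch), 1 for the other TCF20 start, and 0 for each of RAI1, the upstream TCF20 start and PHF14, and 32% of windows held at least 1. These matches describe letters, not binding.

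Library totals were 23.9 to 56.7 M counts. RAI1 was counted 808 to 4951 times a library, TCF20 2548 to 9426, PHF14 2351 to 5955 and HMG20B 445 to 2410 times, so that counting error was at most 4.74% for any of them. The summed level of 7 neuron markers rose from 263 to 517 CPM (counts scaled to a common library size) in WT at day 0 to 5480 to 11200 at day 7, and NANOG, TDGF1 and POU5F1 averaged at most 0.146 CPM in each day 7 group. The other 3 of 6 stem cell markers were still counted at day 7. Of these 1 was higher and 2 lower in KO than in WT, where 17% of all genes were higher and 15.6% lower. LIN28A averaged 23.8 CPM in WT, 102 in HET and 248 in KO, SOX2 13.3, 10.2 and 3.41, and DPPA4 32.8, 15.7 and 6.68. Mesoderm and endoderm markers summed to at most 0.142 CPM at day 7. In bulk RNA, fewer cells of a type and less RNA per cell cannot be told apart.

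RAI1 is the targeted gene and was examined first. At day 0 RAI1 had 22.2 to 40.3 CPM (scaled by TMM, edgeR's trimmed mean of log ratios) in the WT libraries, 28.0 to 47.2 in HET and 23.6 to 48.8 in KO. At day 7 the WT libraries held 37.5, 49.4, 48.8 and 73.8 CPM of RAI1, the HET libraries 76.7, 80.4, 85.7 and 50.5, and the KO libraries 88.3, 95.7, 90.9 and 63.9. RAI1 RNA was thus no lower in cells labelled HET or KO: 3 of 4 KO libraries lay above every WT library at day 7, and the fourth lay between them. A small edit can stop the protein without lowering the RNA, so these counts do not check the genotype labels, and every direction here follows the labels. In edgeR's quasi-likelihood test RAI1 was higher in KO than in WT at day 7 by 0.69 log2 (SE 0.22, adjusted p 0.0296, a 1.62-fold rise). The call did not survive the removal of any of WT replicates 1, 2 and 3 or KO replicates 1, 2 and 3 (adjusted p 0.069 to 0.083), nor limma on the deposited TPM (0.90 log2, adjusted p 0.349). With offsets for transcript length and GC content, added after seeing the data, the RAI1 difference was 0.64 log2 and passed (edgeR adjusted p 0.0098). In all, the RAI1 call held in 9 of 19 alternatives. HET differed from WT at day 7 by 0.48 log2 in RAI1 (SE 0.22, adjusted p 0.168), which did not pass, and passed without WT replicate 4 (0.69 log2, adjusted p 0.0481).

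**Figure D1:**
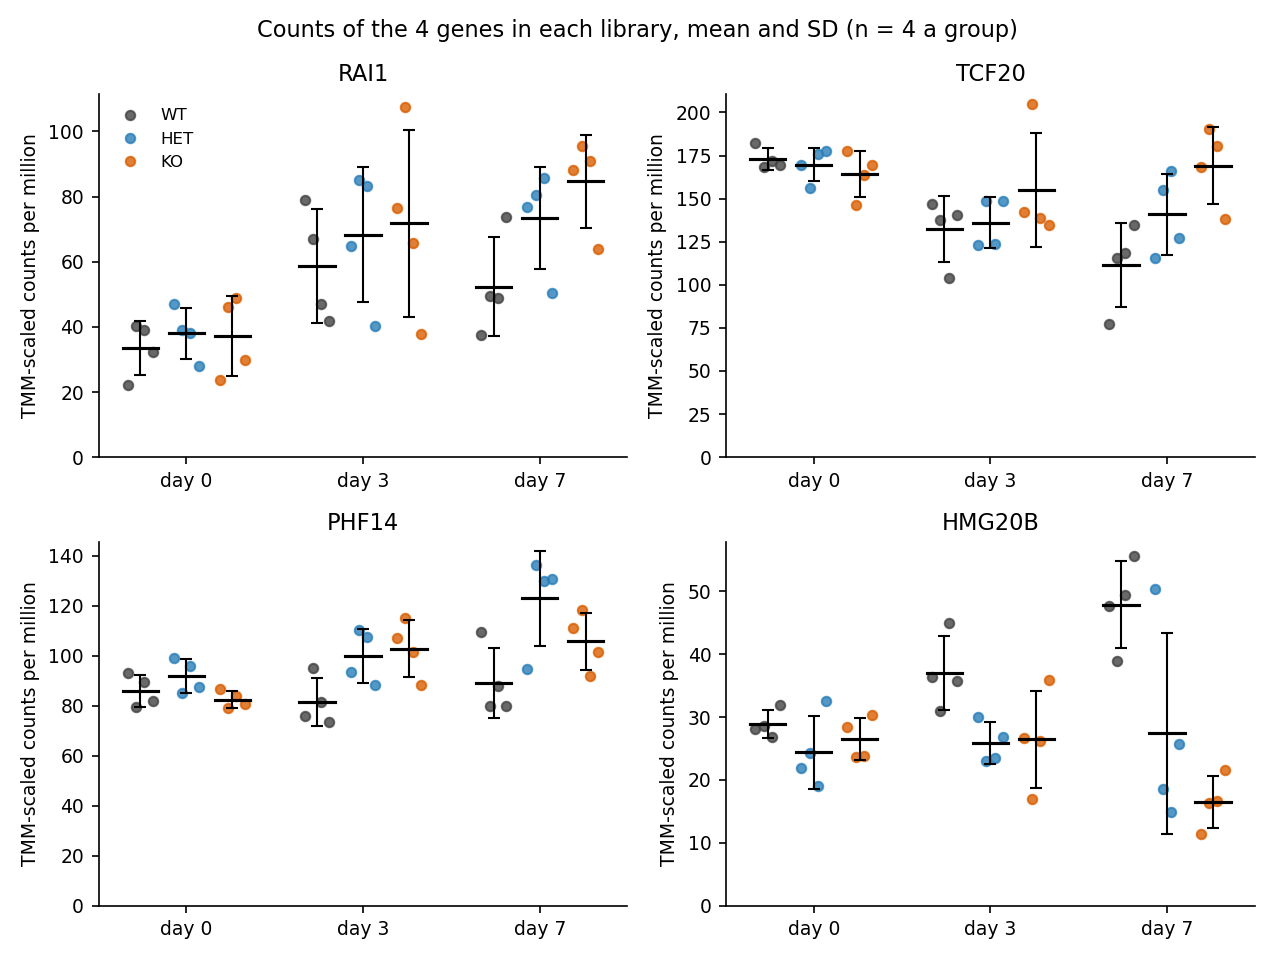
TMM-scaled CPM (y axis) of RAI1, TCF20, PHF14 and HMG20B in each of the 36 libraries by day (x axis) and genotype label (colour); bars show the mean and SD of 4 libraries. At day 7 the KO points of HMG20B (11.4 to 21.6) sit below all WT points (38.9 to 55.6), and the KO points of TCF20 (138 to 190.1) sit above all WT points (77.2 to 134.6).

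TCF20, the paralog of RAI1, was also higher in KO neurons. At day 7 TCF20 had 77.2, 115.4, 118.2 and 134.6 CPM in WT, 115.3, 155.1, 166.0 and 126.9 in HET, and 168.4, 190.1, 180.3 and 138.0 in KO. Every KO library exceeded every WT library, while the HET libraries overlapped both groups. The rise in KO was 0.60 log2 (SE 0.19, edgeR adjusted p 0.0261, 1.52-fold), and HET differed by 0.33 log2 (SE 0.19, adjusted p 0.262). Without WT replicate 1, the lowest of the group, the TCF20 difference was 0.46 log2 (adjusted p 0.0609), and without KO replicates 1, 2 or 3 the adjusted p was 0.0668, 0.0763 and 0.0684. Library size in place of TMM (adjusted p 0.0568) and limma on TPM (1.10 log2, adjusted p 0.26) also ended the TCF20 call. With offsets for transcript length and GC content, an alternative added after seeing the data, the TCF20 rise shrank to 0.37 log2 and passed (adjusted p 0.0371).

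PHF14 was not called by edgeR between genotypes on any day. Its day 7 CPM were 109.4, 79.8, 87.7 and 79.9 in WT, 94.6, 136.4, 129.7 and 130.8 in HET, and 111, 118.4, 92.1 and 101.6 in KO. PHF14 differed from WT in HET by 0.46 log2 (SE 0.16, edgeR adjusted p 0.071) and differed in KO by 0.25 log2 (SE 0.16, adjusted p 0.249). The HET value turned on single libraries: without HET replicate 1, whose PHF14 lay below the other 3, it was 0.54 log2 (adjusted p 0.00836), and without WT replicate 1 it was 0.57 log2 (adjusted p 0.039). DESeq2 called it as well (0.47 log2, adjusted p 0.0458). With the length and GC offsets the PHF14 differences shrank to 0.15 log2 in HET and -0.04 in KO.

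HMG20B was lower in KO neurons, and its log2 difference from WT was the widest of the 4 genes. At day 7 HMG20B had 47.6, 38.9, 49.5 and 55.6 CPM in WT, 50.3, 18.5, 15.0 and 25.8 in HET, and 11.4, 16.3, 16.6 and 21.6 in KO. All KO libraries lay below all WT libraries, and 3 of the 4 HET libraries did too. The fall in KO was 1.54 log2 units (-1.54, SE 0.33, edgeR adjusted p 0.00347, 2.9-fold lower). It passed in each fit that left out 1 of the 8 libraries (-1.69 to -1.43 log2, highest adjusted p 0.0136), with the length and GC offsets (-1.35, adjusted p 0.000284) and with the small structural RNA share in the fit (-1.22, adjusted p 0.00106). On limma with the deposited TPM the HMG20B difference was -0.90 log2 and did not pass (adjusted p 0.208).

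In HET at day 7, HMG20B differed from WT by -0.81 log2 (SE 0.32, edgeR adjusted p 0.108). HET replicate 1 set that result: it held 50.3 CPM, within the WT range, and without it the difference was -1.31 log2 (adjusted p 0.00124). That library also had the highest share of small structural RNAs of its group, 27.5% against 2.84% to 13.4%; its part in the HMG20B value was not tested beyond the fit with the share, in which HET differed by -0.37 log2 (adjusted p 0.398). The length and GC offsets made HMG20B pass in HET (-0.88 log2, adjusted p 0.00765). KO differed from HET by -0.72 log2 (SE 0.32, adjusted p 0.343), and without HET replicate 1 by -0.27 log2 (adjusted p 0.606). With the small structural RNA share in the fit that difference was -0.85 log2 and passed (adjusted p 0.0235).

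Across the 9 comparisons of genotypes within a day, edgeR calls on the 4 genes came at day 7 between KO and WT alone. There 3 of 4 were called (RAI1 and TCF20 higher, HMG20B lower), against 32.6% of all genes tested. None of the 4 was called at day 0 in KO against WT, HET against WT or KO against HET, where 2.08%, 1.63% and 0.856% of all genes were called, and none of those 12 edgeR tests had an unadjusted p below 0.05. None was called at day 3 in KO against WT, HET against WT or KO against HET (21.6%, 3.28% and 4.35% of all genes), although PHF14 and HMG20B had unadjusted p below 0.05 in each of the first pair. At day 7 none was called in HET against WT (14.4% of all genes; 3 of 4 with an unadjusted p below 0.05) or in KO against HET (1.4%; 1 of 4). DESeq2 and limma on TPM also called 0 of the 4 in each of these comparisons, except PHF14 by DESeq2 in HET at day 7.

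At day 3 HMG20B was lower and PHF14 higher in both mutant labels, short of a call. HMG20B had 36.3, 31.0, 45.0 and 35.7 CPM in WT, 30.1, 23.0, 23.5 and 26.9 in HET, and 26.7, 17.0, 26.2 and 35.96 in KO, so that all HET libraries lay below all WT libraries and KO overlapped WT. HMG20B differed by -0.50 log2 in KO (SE 0.21, edgeR adjusted p 0.119) and by -0.50 log2 in HET (SE 0.21, adjusted p 0.301). PHF14 differed by 0.32 log2 in KO (SE 0.14, adjusted p 0.128) and by 0.31 log2 in HET (SE 0.14, adjusted p 0.348). Libraries with the same replicate number deviated together between KO and WT at day 3, and with the replicate number as a block both genes passed in KO (HMG20B -0.53 log2, adjusted p 0.028; PHF14 0.32 log2, adjusted p 0.0416). HMG20B in KO also passed without KO replicate 4 (-0.66 log2, adjusted p 0.0325). On limma with TPM it differed by 0.02 log2, and with the length and GC offsets PHF14 differed by 0.01. Both comparisons share the WT libraries.

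**Figure D2:**
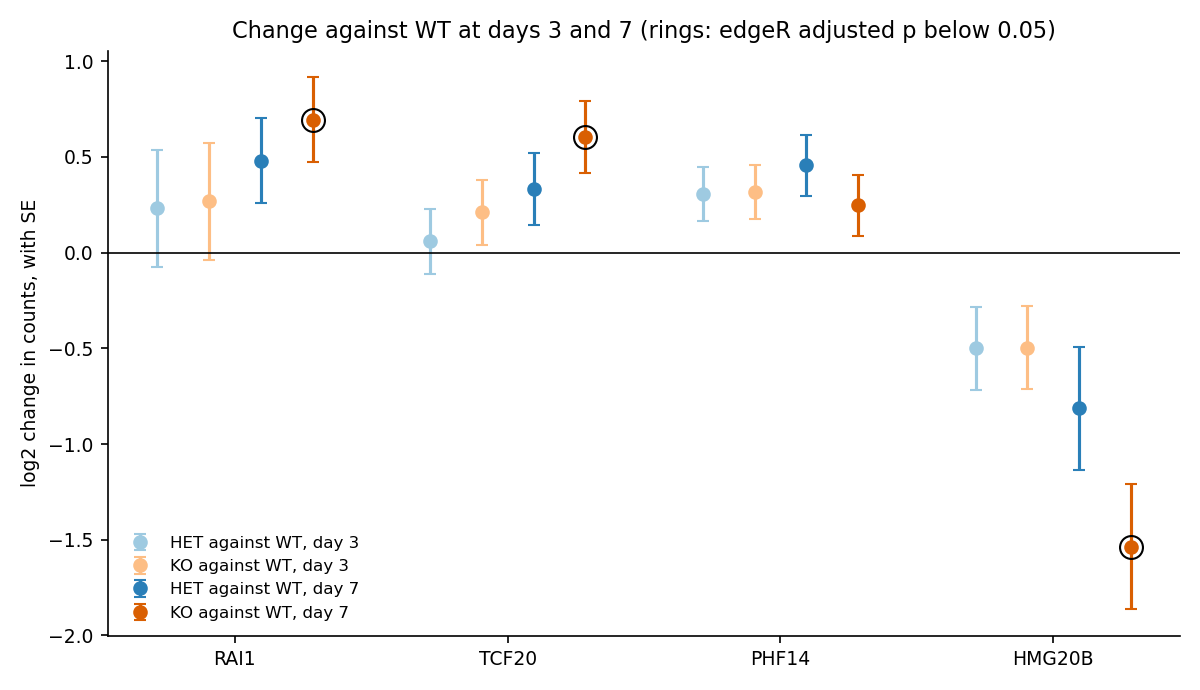
Log2 change in counts against WT with its SE (y axis) for the 4 genes (x axis), in HET and KO at days 3 and 7 (colour); rings mark an edgeR adjusted p below 0.05. The ringed values are those of KO at day 7: RAI1 0.69, TCF20 0.60 and HMG20B -1.54.

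The ratio of 2 genes within a library does not depend on how libraries are scaled, and the balance of the paralogs TCF20 and RAI1 was not shown to differ between genotypes. The ratio of TCF20 to RAI1 counts averaged 5.51 ± 1.86 (SD, n = 4) for WT, 4.64 ± 1.21 for HET and 4.93 ± 2.07 for KO at day 0, and 2.16 ± 0.272, 1.97 ± 0.415 and 2.01 ± 0.107 at day 7. In each genotype all day 7 ratios lay below all day 0 ratios; this difference between days was not tested. At day 7 KO differed from WT in the TCF20 to RAI1 ratio by -0.10 log2 (exact two-sided permutation p = 0.4 over 70 splits, adjusted over the 9 comparisons of this pair 0.845), and by 0.12 log2 on TPM. No comparison of this pair on counts had a smaller p. For PHF14 to RAI1 counts the day 0 ratio averaged 2.74 ± 0.989 (WT), 2.48 ± 0.461 (HET) and 2.45 ± 0.934 (KO). At day 7 it was 1.85 ± 0.773, 1.76 ± 0.587 and 1.27 ± 0.238, with overlapping ranges. KO differed from WT at day 7 in the PHF14 to RAI1 ratio by -0.47 log2 (exact permutation p = 0.229, adjusted p 1.0) and from HET by -0.43 log2 (exact permutation p = 0.2, adjusted p 1.0).

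**Figure D3:**
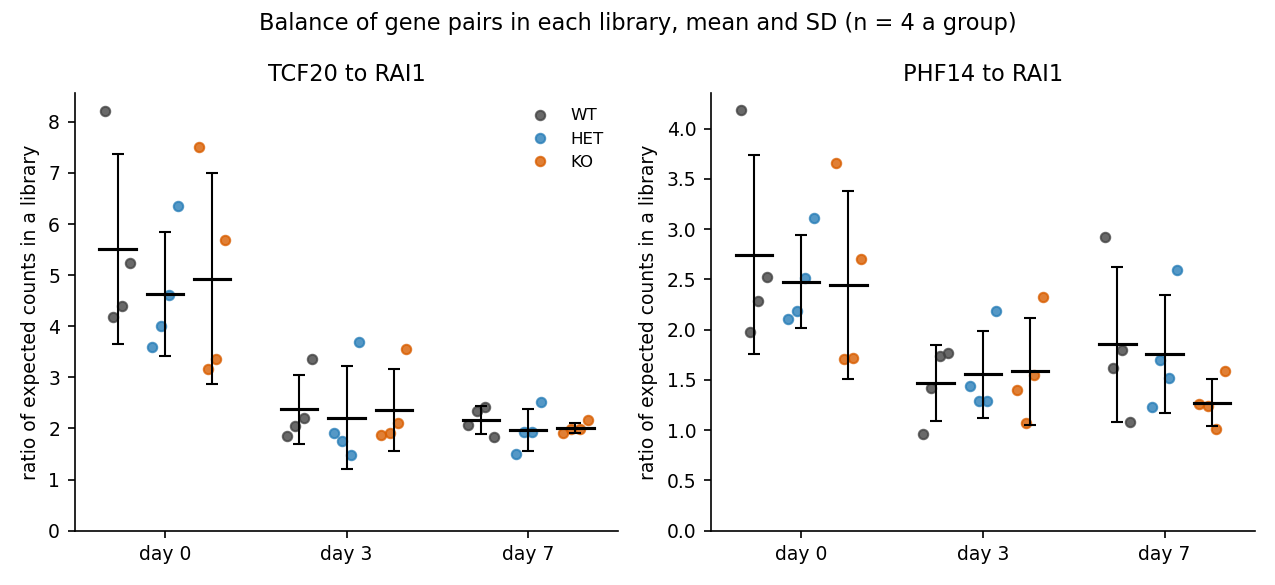
Ratio of expected counts within each library (y axis) for TCF20 to RAI1 and for PHF14 to RAI1, by day (x axis) and genotype label (colour), with the mean and SD of 4 libraries. At day 7 the TCF20 to RAI1 ratios of WT (1.82 to 2.42), HET (1.5 to 2.51) and KO (1.91 to 2.16) overlap, and each set lies below the day 0 ratios of its genotype.

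Levels can be set beside each other per transcript length with TPM. At day 0 in WT, TCF20 (22.2 ± 3.59 TPM, SD, n = 4), PHF14 (21.9 ± 3.52) and HMG20B (17.8 ± 2.22) had overlapping ranges over libraries, and RAI1 was the lowest at 4.5 ± 0.987. Within each WT library at day 0, HMG20B lay below both TCF20 and PHF14. At day 7 in WT the order was HMG20B (10.7 ± 2.07 TPM), PHF14 (7.57 ± 1.48), TCF20 (5.48 ± 2.17) and RAI1 (2.83 ± 0.976). The range of each over libraries overlapped that of its neighbour, and within each WT library the genes stood in this same order. At day 7 in KO, TCF20 (12.7 ± 3.87 TPM) and PHF14 (12.5 ± 2.36) led and overlapped, followed by RAI1 (6.16 ± 1.85) and HMG20B (5.34 ± 1.35), which also overlapped. In KO replicates 1 to 3 TCF20 lay above PHF14 and RAI1 above HMG20B, and both orders were reversed in replicate 4. The orders within libraries were not tested. HMG20B thus had the highest mean of the 4 in WT neurons and the lowest in KO neurons. On log2 TPM the KO and WT libraries at day 7 did not overlap in any of the 4 genes (RAI1 1.14, TCF20 1.25, PHF14 0.73, HMG20B -1.03 log2). The exact permutation p was 0.0286 for each, the smallest that 70 splits allow. No adjusted p was below 0.05 (0.257, and 0.129 for HMG20B). The share of all genes without such overlap is not given here, so the separation is a description. TPM carries the load of very abundant small RNAs. The all-gene median in TPM differed at day 7 by 0.175 log2 between KO and WT, by 0.458 between HET and WT, and by -0.222 between KO and HET. At day 3 that median differed by 0.202 (KO) and 0.131 (HET) from WT. The part of the small RNAs in these shifts was not tested. In HET at day 7 HMG20B was at 10.95 ± 4.41 TPM, which overlapped WT (-0.03 log2; exact permutation p = 1.0).

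RAI1 rose in the first days of induction in each genotype when measured on counts. Between days 0 and 3 it rose by 0.81 log2 in WT (SE 0.25, edgeR adjusted p 0.0125), 0.83 in HET (SE 0.25, adjusted p 0.0139) and 0.93 in KO (SE 0.29, adjusted p 0.0128). Each RAI1 rise passed with any 1 library left out (highest adjusted p 0.0454 in WT, 0.0449 in HET and 0.0488 in KO). On limma with TPM, RAI1 changed by -0.09 log2 in WT, 0.15 in HET and 0.48 in KO, none called, where the all-gene median in TPM moved by -0.377, -0.296 and -0.179. From day 3 to 7 that median moved by -0.101 in WT and -0.168 in KO. With the length and GC offsets the RAI1 rise between days 0 and 3 was 0.80 log2 in WT (edgeR adjusted p 0.00188) and 0.70 in HET (adjusted p 0.0251). In KO it was 0.54 log2 and did not pass (adjusted p 0.0697). With the replicate block added to the offsets the KO rise was 0.53 log2 and passed (adjusted p 0.0225). Between days 3 and 7 in WT, RAI1 changed by -0.16 log2 (edgeR adjusted p 0.632) and TCF20 by -0.24 (adjusted p 0.243), and with the offsets both were called lower (RAI1 -0.48, adjusted p 0.0414; TCF20 -0.39, adjusted p 0.016). With the replicate block added to the offsets the TCF20 call passed (adjusted p 0.0262) and that of RAI1 did not (adjusted p 0.0716). Between days 0 and 3, TCF20 fell in WT by 0.39 (-0.39 log2, SE 0.16, adjusted p 0.0487) and PHF14 rose in KO by 0.30 (SE 0.12, adjusted p 0.0408), both near the threshold. With the length and GC offsets neither was called: TCF20 in WT was -0.05 log2 (edgeR adjusted p 0.732) and PHF14 in KO 0.06 log2 (adjusted p 0.635). Among fits without 1 library, the TCF20 call held in that without WT day 3 replicate 1 alone, and the PHF14 call in those without KO day 3 replicates 3 or 4 alone (adjusted p up to 0.148 and 0.1), and on TPM PHF14 changed by -0.32 log2. On limma with TPM, TCF20 (-1.27 log2, adjusted p 0.00094) and PHF14 (-1.06, adjusted p 0.00128) were called lower in WT over these days, where PHF14 did not pass on counts.

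The time course of HMG20B depended on the scale. On counts it rose in WT by 0.36 log2 from day 0 to 3 (SE 0.14, edgeR adjusted p 0.045) and by 0.37 from day 3 to 7 (SE 0.14, adjusted p 0.048). On limma with TPM the same steps were -0.67 log2, a called fall (adjusted p 0.00919), and -0.02 log2, and with the length and GC offsets they were -0.03 and 0.24 log2, not called. The first WT rise failed in each fit without 1 library other than day 0 replicate 4 or day 3 replicate 2, and the second in each other than day 3 replicate 3 or day 7 replicate 2 (adjusted p up to 0.154 and 0.148). In KO, HMG20B changed by -0.02 log2 from day 0 to 3 (adjusted p 0.951), and with the length and GC offsets by -0.48 log2, a called fall (adjusted p 0.0349). From day 3 to 7 it fell in KO by 0.65 (-0.65 log2, SE 0.23, adjusted p 0.0295), and this fall passed on TPM (-0.94 log2, adjusted p 0.0445) and with the offsets (-0.60, adjusted p 0.0155). It was lost without KO day 3 replicate 4 (adjusted p 0.0972) and without KO day 7 replicates 1, 2 or 3 (0.0905, 0.0609 and 0.0607). The day 3 to 7 change of HMG20B differed between KO and WT by -1.06 log2 (SE 0.36, interaction test, adjusted p 0.0345), and the same test between HET and WT gave -0.29 log2 (SE 0.35, adjusted p 0.778). The KO interaction missed the threshold in 10 of the 16 fits that left out a library (highest adjusted p 0.0885, without KO day 3 replicate 4) and on limma with TPM (-0.92 log2, adjusted p 0.258). The libraries whose absence ended it were WT day 3 replicates 1, 2 and 4, KO day 3 replicates 1 and 4, WT day 7 replicates 3 and 4, and KO day 7 replicates 1, 2 and 3 (adjusted p from 0.0524).

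Counted over the 4 genes, edgeR called 3 between days 0 and 3 in WT (60% of all genes were called), 1 in HET (48.3%) and 2 in KO (59.3%), and between days 3 and 7 it called 1 in WT (46.2%), 0 in HET (41.2%) and 1 in KO (47.8%). With 4 genes, these counts lie near the background shares. In HET between days 3 and 7 no member had an unadjusted p below 0.05, and DESeq2 and limma called 0; without HET day 7 replicate 1, PHF14 rose over that interval by 0.41 log2 (edgeR adjusted p 0.0109). The interaction tests called 0 of 4 for KO between days 0 and 3 (8.55% of all genes; 1 of 4 with an unadjusted p below 0.05), 1 of 4 for KO between days 3 and 7 (18.5%), and 0 of 4 for HET in both intervals (0.271% and 4.74%; 0 with an unadjusted p below 0.05). DESeq2 and limma also called 0 where edgeR called 0.

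Isoform use was read from the effective length, the transcript length implied by a gene's count and FPKM in a library, which moves when the estimated mix of isoforms or the fragment lengths move. Over the 36 libraries it averaged 5687 bases for RAI1 (4631 to 6374), 5882 for TCF20 (5032 to 6652), 3232 for PHF14 (2743 to 4209) and 1263 for HMG20B (1131 to 1314). RAI1 in KO averaged 5948 ± 206 bases at day 0 and 5912 ± 107 at day 7, and in WT 5579 ± 364 and 5453 ± 617 (SD, n = 4), with overlapping ranges. In limma, 0 of the 4 genes changed length between genotypes at day 0 (0.0173%, 0.0173% and 0.0259% of all genes in KO against WT, HET against WT and KO against HET), at day 3 (0.0781%, 0.00868% and 0%) or at day 7 (0.605%, 0.508% and 0.0178%). Unadjusted p was below 0.05 for 2, 0 and 0 of the 4 genes at day 0, for 2, 0 and 0 at day 3, and for 0, 2 and 1 at day 7. Single libraries moved the day 7 calls: without WT replicate 4 RAI1 was longer in KO by 0.20 log2 (limma adjusted p 0.018) and in HET by 0.23 (adjusted p 0.0149), and without HET replicate 1 PHF14 was longer in HET by 0.25 (adjusted p 0.015).

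Over induction, TCF20 and PHF14 lengthened in WT between days 3 and 7 by 0.09 log2 (limma adjusted p 0.048) and 0.16 log2 (adjusted p 0.0205), where 4.91% of all genes were called. TCF20 went from 5743 ± 77 to 6126 ± 168 bases and PHF14 from 3061 ± 121 to 3417 ± 82 (SD, n = 4). With the replicate block neither passed. TCF20 also failed without any of WT day 3 replicates 1 to 4 or day 7 replicates 1, 2 and 3 (adjusted p 0.0683 to 0.111), and PHF14 without day 3 replicate 4 or day 7 replicates 2 and 3 (0.0521 to 0.0583). In the other 5 day comparisons 0 of 4 genes were called by limma, beside 13% of all genes in WT, 2.75% in HET and 5.9% in KO between days 0 and 3, and 3.43% in HET and 4.16% in KO between days 3 and 7. Unadjusted p was below 0.05 for 1, 0, 2, 2 and 1 of the 4 genes in that order. Without HET day 7 replicate 1, PHF14 lengthened in HET between days 3 and 7 by 0.40 log2 (limma adjusted p 0.00352).

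**Figure D4:**
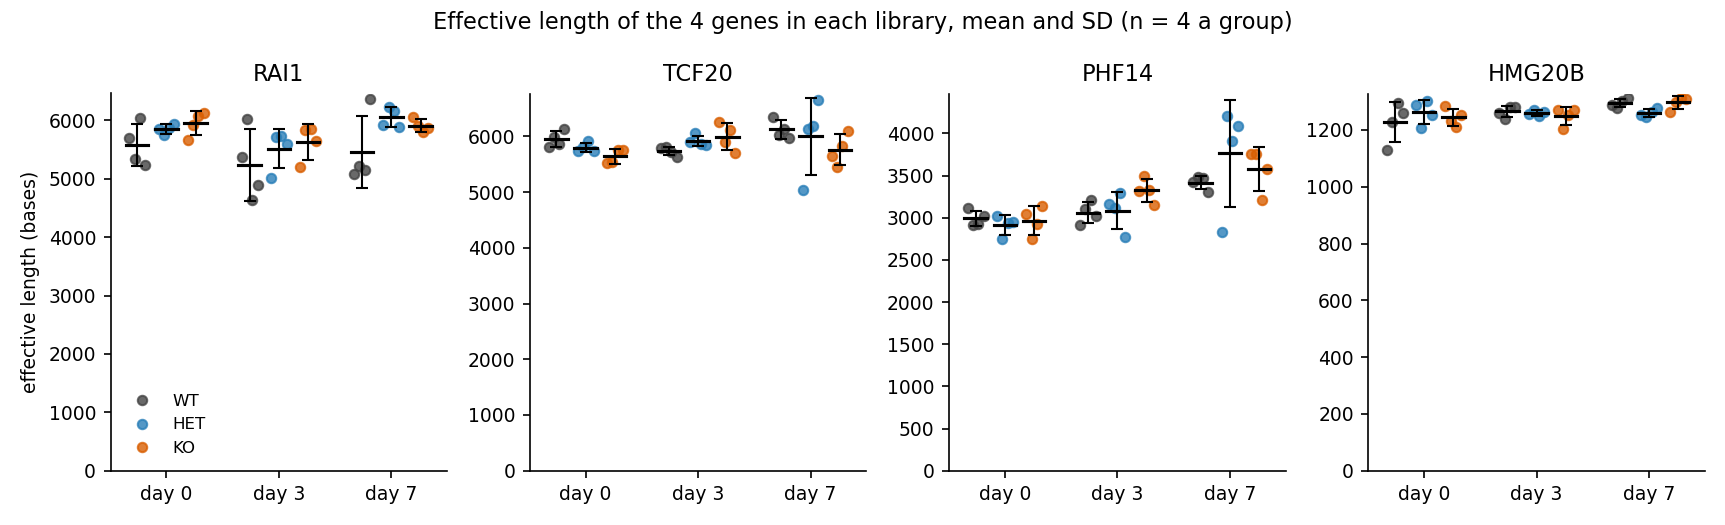
Effective length in bases (y axis, from 0) of the 4 genes in each library by day (x axis) and genotype label (colour), with the mean and SD of 4 libraries. HMG20B stays between 1131 and 1314 bases in all 36 libraries, and RAI1 in KO stays within the span of the other groups.

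Within groups, counts of the 4 genes moved with the share of counts taken by the abundant short RNAs RMRP, RPPH1, RN7SK, RN7SL2 and RN7SL1, called small structural RNAs here. That share also differed between days and genotypes: it ran from 4.02% to 6.45% at day 0, and at day 7 it was 14.5% to 25.6% in WT, 2.84% to 27.5% in HET and 9.9% to 15.8% in KO. After the mean of each group was removed, log2 CPM of HMG20B rose with the log2 share (r = 0.733 over 36 libraries), and log2 CPM of TCF20 (r = -0.627), PHF14 (r = -0.544) and RAI1 (r = -0.496) fell with it. The libraries share day and scaling, so r is a description. In the plot of counts against this share, KO libraries of HMG20B at day 7 lie below libraries of WT and HET with a similar share. With the share in the fit, the KO to WT differences at day 7 were 0.59 log2 for RAI1 (edgeR adjusted p 0.0605), 0.46 for TCF20 (adjusted p 0.0472), 0.17 for PHF14 (adjusted p 0.441) and -1.22 for HMG20B (adjusted p 0.00106).

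**Figure D5:**
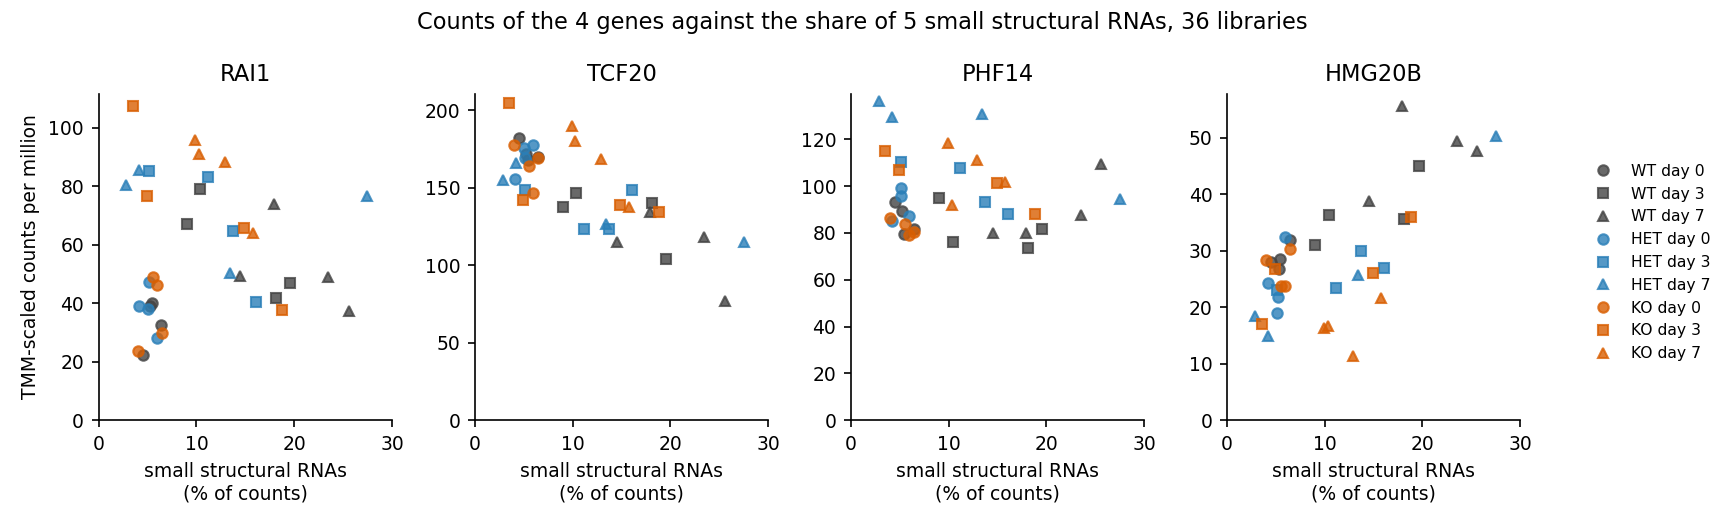
TMM-scaled CPM (y axis) of the 4 genes against the percentage of counts from 5 small structural RNAs (x axis) in the 36 libraries, with genotype label as colour and day as symbol. HMG20B climbs with the share within groups, as in KO at day 3 from 17.0 CPM at 3.54% to 35.96 CPM at 18.8%, and its KO day 7 libraries sit at 11.4 to 21.6 CPM for shares of 9.9% to 15.8%.

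Neuron markers also differed between genotypes and stand beside these results. At day 3, 7 of 7 were higher in KO than in WT (median log2 2.31), where 12.6% of all genes were higher. In HET at day 3, 2 of 7 were higher than in WT (median log2 1.49), where 2.52% of all genes were higher. None of the 7 was lower in either label. Of 4 neural progenitor markers 1 was higher in KO and 2 in HET at day 3, and of 4 stem cell markers tested 1 was higher in KO. At day 7, 17% of all genes were higher in KO than in WT and 15.6% lower. Of 7 neuron markers 4 were higher there and none lower (median log2 0.783). Their summed levels were 11100 to 14200 CPM in KO and 5480 to 11200 in WT. Of 4 neural progenitor markers 2 were lower (summed 157 to 386 CPM in KO, 299 to 539 in WT). Of 3 neural crest markers 1 was higher and 1 lower (4.65 to 12.4 CPM in KO, 3.09 to 30.4 in WT). Of 5 glial markers 1 was higher and none lower (87.9 to 229 CPM in KO, 116 to 319 in WT), and GFAP and AQP4, which define astrocytes, averaged 0.234 and 0.22 CPM in KO and 0.303 and 0.0499 in WT. In HET at day 7, 8.31% of all genes were higher than in WT and 6.1% lower. There 2 of 7 neuron markers and 1 of 3 tested stem cell markers were higher, and 1 of 4 neural progenitor markers was lower. Whether these marker differences have a part in those of RAI1, TCF20 and HMG20B was not tested.

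Genes annotated over the same ground were counted as well, since the use of strand in counting was not given in the sources used here. SREBF1, on the strand opposite RAI1, shares 556 exonic bases with it and had 32.8 CPM in WT and 36.8 in KO at day 7 (0.17 log2, edgeR adjusted p 0.703). MFSD12, on the strand opposite HMG20B, shares 369 exonic bases with it and had 28.3 and 27.5 CPM (-0.04 log2, adjusted p 0.883). OGFRP1 lies within TCF20 and shares no exonic base with it; it had 1.58 CPM in WT and 3.49 in KO (1.13 log2, adjusted p 0.045). The OGFRP1 call held in 9 of 19 alternatives (0.22 to 1.67 log2), and failed without any of WT replicates 1 to 3 or KO replicates 1 to 4. RAI1-AS1, within RAI1, had 0.193 and 0.163 CPM, and SMCR5, also within RAI1, had 1.26 and 1.72. RPL23AP52, within PHF14, had 0.0901 and 0.0951.

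Among 12371 genes with a symbol and a mean of at least 5 CPM, those most like RAI1 over the 36 libraries were CDK19, a Mediator kinase (Pearson r = 0.914, and 0.833 after each group's mean was removed), and ST8SIA2, which adds polysialic acid to NCAM1 (0.887 and 0.821). LINC01128 (0.887 and 0.816), SNX30 (0.883 and 0.781) and MAN2B2 (0.879 and 0.791) followed. TCF20 was most like FNBP1 (0.885 and 0.799), TADA2B (0.863 and 0.794), CLTC (0.859 and 0.7), NF2 (0.838 and 0.738) and CABIN1 (0.831 and 0.72). PHF14 was most like ZNF148 (0.878 and 0.862), LIN7C (0.87 and 0.799), CMPK1 (0.857 and 0.788), YIPF6 (0.853 and 0.744) and SLC25A46 (0.849 and 0.75). HMG20B was most like DOK1 (0.911 and 0.889), RPS3 (0.87 and 0.705), EML3 (0.869 and 0.686), HYAL2 (0.863 and 0.872) and GHDC (0.853 and 0.78). Among the 4 genes themselves, TCF20 and HMG20B ran opposite (r = -0.649, and -0.5 without group means), as did PHF14 and HMG20B (-0.561 and -0.602), and RAI1 and HMG20B (-0.368 and -0.424). RAI1 and PHF14 had r = 0.51 and 0.17, RAI1 and TCF20 -0.0288 and 0.37, and TCF20 and PHF14 0.0405 and 0.082. These are values over libraries that share days. Within groups, HMG20B rose with the small structural RNA share (r = 0.733), and RAI1, TCF20 and PHF14 fell with it (r = -0.496, -0.627 and -0.544). The part of that share in the r between genes was not tested.

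In the LSD1-CoREST complex, in which HMG20B works, 5 of 12 genes were lower in KO at day 7 and none higher, beside 15.6% of all genes lower and 17% higher (median log2 -0.09 over the 12, and -0.04 over all genes). They were REST, the repressor of neuronal genes (-1.92 log2, SE 0.28, edgeR adjusted p 0.000344), the deacetylase HDAC1 (-1.41, adjusted p 0.000188), the CoREST scaffold RCOR2 (-1.40, adjusted p 0.00138) and PHF21B (-0.52, adjusted p 0.0319), and, named after its values were seen, the scaffold RCOR1 (-0.34, adjusted p 0.0353). In HET at day 7, 3 of the 12 were lower, beside 6.1% of all genes: REST (-1.46, adjusted p 0.00457), HDAC1 (-1.07, adjusted p 0.00291) and RCOR2 (-0.86, adjusted p 0.0375). At day 3 in KO, where 8.93% of all genes were lower and 12.6% higher, REST (-1.92, adjusted p 0.000154) and HDAC1 (-0.72, adjusted p 0.0224) were lower, and GSE1 (0.92, adjusted p 0.0234) and the demethylase KDM1A (0.43, adjusted p 0.0477) were higher. For KO at day 7 the calls of REST, HDAC1 and RCOR2 each held in 18 of 19 alternatives and failed on limma with TPM, whereas that of PHF21B held in 8 (lost without any of WT replicates 2 to 4 or KO replicates 1 to 4) and that of RCOR1 in 6 (lost without any 1 of the 8 libraries). For HET at day 7 the calls of REST and HDAC1 held in 18 of 19 and failed on TPM (-0.30 and -0.12 log2), and that of RCOR2 held in 10, with -0.016 on TPM, and was lost without any library other than HET replicate 1. For KO at day 3 the call of REST held in 18, that of HDAC1 in 15 (lost without WT replicates 1 or 2 or KO replicate 1; -0.18 on TPM), that of GSE1 in 14 (lost without WT replicates 3 or 4 or KO replicates 1 or 2) and that of KDM1A in 9 (lost without any library other than KO replicate 4).

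Relatives of RAI1 and TCF20 with an extended PHD finger were called in both directions. Of 19, 2 were higher and 2 lower in KO at day 7 (median log2 -0.02), which is below the 17% and 15.6% of all genes: JADE1 (0.95, edgeR adjusted p 0.00204) and BRPF3 (0.57, adjusted p 0.042) rose, and PHF11 (-1.51, adjusted p 0.0413) and MLLT10 (-0.42, adjusted p 0.0139) fell. At day 3 in KO the direction of JADE1 was the opposite: it was lower (-0.68, adjusted p 0.0344), as was PHF11 (-0.96, adjusted p 0.0242), and KMT2C was higher (0.55, adjusted p 0.0368). The change of JADE1 from day 3 to 7 differed between KO and WT by 1.60 log2 (interaction test, adjusted p 0.000103). The day 3 calls of JADE1, PHF11 and KMT2C held in 12, 12 and 8 of 19 alternatives. They were lost without WT replicates 1, 2 or 4 or KO replicates 1 or 3 for JADE1, WT replicate 3 or KO replicates 2 or 3 for PHF11, and any of WT replicates 1 to 4 or KO replicates 1 or 2 for KMT2C. PHF6 was higher in HET than in WT on each day, by 1.15 log2 at day 0 (adjusted p 4.98e-05), 0.97 at day 3 (adjusted p 0.00134) and 1.21 at day 7 (adjusted p 0.000825), and at day 7 JADE1 was higher as well (0.68, adjusted p 0.0264). PHF6 was lower in KO than in HET on each day too: -1.01 log2 at day 0 (edgeR adjusted p 0.000317), -0.825 at day 3 (adjusted p 0.00554) and -1.03 at day 7 (adjusted p 0.00701). Of 10 HMG and other nucleosome-binding genes, HMGB3 rose in KO at day 7 (1.32, adjusted p 0.000189), and HMGA1 (-1.36, adjusted p 0.00277) and HMGN3 (-1.25, adjusted p 0.00777) fell. The same 3 genes were called in HET in the same directions, against the same WT libraries (8.31% of all genes higher, 6.1% lower): HMGB3 1.00, HMGA1 -1.08 and HMGN3 -0.98 log2. In HET the HMGB3 call held in 18 of 19 alternatives, that of HMGA1 in 13 (-0.27 log2 on TPM; lost without WT replicate 3 or HET replicates 2, 3 or 4) and that of HMGN3 in 11 (-0.12 on TPM; lost without WT replicates 1, 2 or 3 or HET replicates 2, 3 or 4). HMGN1 (-0.88, adjusted p 0.00368), HMGN2 (-0.84, adjusted p 0.0127) and HMGB2 (-1.23, adjusted p 0.0417) were lower in KO at day 3 (8.93% of all genes lower), and these calls held in 18, 17 and 11 of 19 alternatives; that of HMGB2 was lost without any library other than KO replicate 4. For KO at day 7 the calls of JADE1, HMGB3, HMGA1 and HMGN3 each held in 18 of 19 alternatives and failed on limma with TPM, that of MLLT10 held in 16, that of PHF11 in 11 and that of BRPF3 in 8. The PHF11 call was lost without WT replicates 1 (-0.89 log2) or 2 or KO replicates 2, 3 or 4, and that of BRPF3 without any of WT or KO replicates 1 to 3. That of JADE1 in HET held in 12, and was lost without WT replicates 2 or 4 or HET replicates 2 or 3.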

How the data were processed

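Per the labels' protocols, libraries from total RNA depleted of ribosomal RNA were read from both ends (151 bp). The authors deposited expected counts, TPM and FPKM per gene; expected counts were rounded to whole numbers. Per the submitters' processing notes, cutadapt 4.8, STAR 2.7.8a, RSEM 1.3.3, FastQC 0.11.8, MultiQC 1.20 and the build GRCh38 were used; roles, annotation and strand setting were not given in the sources used here. Reporter sequences (4 features) were left out.

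Genotypes were compared within a day and days within a genotype (12 libraries a fit), and interactions over 36 libraries, with edgeR 4.0.16 (R 4.3.3): TMM, filterByExpr, quasi-likelihood F test, Benjamini-Hochberg over all genes tested, threshold 0.05. Effective length (expected count divided by FPKM and library total) was tested with limma 3.58.1 on genes with at least 100 counts in every library of the fit. Levels (log2 TPM) and count ratios used exact two-sided permutation tests over 70 splits.

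Alternatives were limma on log2(TPM + 1), other scalings, no filter, DESeq2 1.42.0, the structural RNA share, the replicate block, leaving out each library and, added later, length and GC offsets (94.2% to 95.1% of tested genes had a length). All 4 same-number correlations exceeded 0.1 for KO and WT at day 0 (0.29 to 0.695), KO and WT at day 3 (0.129 to 0.588) and HET and WT at day 3 (0.166 to 0.796), a pairing hinted at by the data alone. The 4 genes were always named; up to 4 called genes a list, 5 most-like genes and overlapping genes were named by rule. A planned comparison is not reported here. Members and lists were chosen with earlier results of these data known. On simulated data with 200 changed genes, edgeR recovered 100% for KO against WT at day 7 (21391 genes, 5.21% false). The simulation gave all genes a single dispersion, and equal numbers of rises and falls of a fixed size larger than the RAI1 and TCF20 differences. It checks the code on large known changes and does not measure power or error for the differences reported here.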

Additional observations from a re-analysis of the deposited data

Results flagged for a closer look

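Within groups of 4 libraries, values were examined for a single library apart from the other 3, over the counts and effective lengths of the 4 genes and 2 count ratios. Of 90 groups 5 had such a library, which is near the 1 in 20 that chance gives. TCF20 stood at 204.6 CPM in KO day 3 replicate 2, above the other 3 KO libraries (134.5 to 142.5), in the library with the lowest small structural RNA share of its group (3.54%). PHF14 stood at 94.6 CPM in HET day 7 replicate 1, below the other 3 (129.7 to 136.4); that library had the highest share of its group (27.5%). The effective length of RAI1 was 6374 bases in WT day 7 replicate 4. The PHF14 to RAI1 count ratio was 2.19 in HET day 3 replicate 4, and the TCF20 to RAI1 count ratio was 3.55 in KO day 3 replicate 4.

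The change of HMG20B between days 3 and 7 differed between KO and WT by -1.06 log2 in the edgeR interaction test (SE 0.36, adjusted p 0.0345), with WT rising by 0.37 log2 and KO changing by -0.65. The interaction call held in 11 of 22 alternatives, the WT rise in 4 of 16 and the KO fall in 12 of 16.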

How the results depend on the processing

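In KO against WT at day 7 the fall of HMG20B held in 18 of 19 alternatives, the rise of TCF20 in 13 and that of RAI1 in 9. The cause of the changes listed here was not tested, beyond the fewer libraries of the leave-one-out fits. Counts of the 4 genes called moved as follows, where a step between 3 and 2 was not counted as a move. In KO against WT at day 7, such a step is thus not listed, although the share as a covariate lost the RAI1 call and library size alone the TCF20 call. Limma on TPM called 0 in KO against WT at day 7, 0 from day 3 to 7 in WT, 0 from day 0 to 3 in HET, 0 in KO, and 0 in the KO interaction from day 3 to 7. In KO against WT at day 3 the replicate block called 2, all 36 libraries 1, and the length and GC offsets with the block 1. In HET against WT at day 7 DESeq2 called 1, all 36 libraries 2, and the offsets 1 with and without the block. In KO against HET at day 7 the structural RNA share as a covariate gave 1. From day 0 to 3 in WT no filter, the block, and the offsets with and without the block each called 1. From day 3 to 7 in WT library size alone, no filter and the block called 0, and the offsets 2, RAI1 and TCF20 lower in place of HMG20B. From day 0 to 3 in KO each of RLE, library size, no filter, DESeq2, the block and the offsets called 1. For effective length from day 3 to 7 in WT a minimum of 30 counts and centring gave 1, and the block 0. The block used numbers whose pairing held in the data for KO and HET against WT at day 3 and KO against WT at day 0. By the same rule, the block moved no count of calls in the genotype comparisons beyond those given.

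Leaving out each library gave 0 to 1 genes in KO against WT at day 3, 1 to 3 at day 7, 0 to 2 in HET against WT at day 7, 1 to 2 from day 0 to 3 in WT and KO, and 0 to 1 from day 3 to 7 in WT, HET and KO and in the KO interaction. For effective length it gave 0 to 1 in KO and HET against WT at day 7 and from day 3 to 7 in HET, and 0 to 2 from day 3 to 7 in WT.

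Of the values given in the text, signs turned in these, all in log2. With the share as a covariate RAI1 in KO at day 3 was -0.099. With the offsets, then with the offsets and block, RAI1 in KO at day 3 was -0.075 and -0.107, TCF20 -0.0366 and -0.0295, TCF20 in HET at day 3 -0.0562 and -0.0602, PHF14 in KO at day 7 -0.0438 and -0.0404, HMG20B from day 0 to 3 in WT -0.0322 and -0.0339, and MFSD12 in KO at day 7 0.21 and 0.23. On limma with TPM HMG20B was 0.0169 in KO at day 3, -0.67 from day 0 to 3 and -0.0213 from day 3 to 7 in WT, and 0.15 in the HET interaction, RAI1 was -0.0877 from day 0 to 3 in WT, PHF14 -0.32 in KO, and in KO at day 7 PHF21B was 0.0187, MLLT10 0.19, RCOR1 0.11 and MFSD12 0.45. HMG20B from day 0 to 3 in KO was 0.0489 with no filter. The TCF20 to RAI1 ratio in KO at day 7 was 0.12 on TPM. Values near 0 that the text does not give turned with the offsets as well: RAI1 to -0.22, PHF14 to -0.13 and HMG20B to -0.06 in KO against HET at day 3, and RAI1 to -0.24, TCF20 to -0.15 and HMG20B to -0.19 from day 3 to 7 in HET. Without single libraries TCF20 in HET at day 3 ran from -0.0445 to 0.113, HMG20B from day 0 to 3 in KO from -0.21 to 0.16, HMG20B TPM in HET at day 7 from -0.27 to 0.11, and MFSD12 in KO at day 7 from -0.18 to 0.19.

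Counting error was at most 4.74% for any of the 4 genes, and at most 1.98% for TCF20. The spread between libraries was wider than counting error even for TCF20 in WT at day 0 (mean 173.1 CPM, SD 6.34, n = 4).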
